A study of Mus musculus with 12 samples.

Results

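The genes described here encode the protein subunits of the cytosolic ribosome. Every gene of the counts table was taken whose symbol is Rpl or Rps followed by a digit, or is Rpsa, Rplp0, Rplp1 or Rplp2, leaving out the Rps6k kinases and the pseudogenes with -ps names. The rule found 93 of 55487 genes. Of these, 77 are the usual subunits, 31 of the small and 46 of the large subunit. A further 7 are paralogues (Rpl3l, Rpl7l1, Rpl10l, Rpl22l1, Rpl36al, Rpl39l and Rps27l), 8 are retrotransposed copies (Rpl6l, Rpl32l, Rpl37rt, Rps3a2, Rps3a3, Rps4l, Rps12l1 and Rps27rt), and 1, Rps19bp1, encodes a binding partner of Rps19 that is not a subunit. The rule misses Fau, which encodes a ribosomal protein joined to a ubiquitin-like part, and leaves out 300 genes with -ps names.

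A cytosolic ribosome joins a small subunit, which reads the messenger RNA, to a large subunit, which forms the peptide bond, and most of their proteins are needed in equal number. The subunit genes lie apart from one another and are transcribed at high levels in dividing cells, and lymphocytes that leave rest make many more ribosomes. Their messenger RNAs begin with a run of cytosines and thymines (uracils in the RNA), the terminal oligopyrimidine tract, through which mTOR and the RNA-binding protein LARP1 control how well they are translated.

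RNA of mouse lymph nodes was sequenced in 4 groups of 3 libraries. Mice of the T groups carried B16F10 melanoma, a mouse melanoma cell line injected into the tongue, and those of the NT groups did not. In NDE mice the pain-sensing nerves that supply the tumour-draining node had been inhibited, while NC mice kept them. NT NC therefore had neither treatment, T NC the tumour cells alone, NT NDE the nerve inhibition alone, and T NDE both. The labels give no strain, age, method of inhibition or time, call the repetitions biologically independent, and do not say whether a library holds 1 mouse or several, so p-values measure the spread between these libraries. The nodes are bulk tissue, in which fewer cells of a type and less RNA per cell cannot be told apart.

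Libraries held 16862953 to 24467873 counts. The lymphocytes that make up a node were present by their markers, with 14 T cell markers at a summed 1883 to 2480 counts per 1000000 (CPM) and 12 B cell markers at 4323 to 5903 CPM over the 12 libraries, each marker with counts. Melanocyte markers, which the tumour cells would bring, summed to 8.54 to 24.3 CPM over 9 genes. They were highest in T NDE replicate 3 and next highest, at 16.1 CPM, in NT NC replicate 3, from mice without a tumour, while the T NC libraries held 8.54 to 10.7 CPM. Salivary gland transcripts (of 18 listed genes 17 were matched and 16 had counts, with Scgb2b26 at 0) took 4.08% of counts in T NDE replicate 3, 2.89% in NT NC replicate 3 and 0.156% in NT NC replicate 2, against 0.00231% to 0.00718% in the other 9 libraries. These 3 are called the salivary libraries below, and results are given with and without them. Of the 93 genes, 91 had enough counts to be tested, among 17301 tested genes; Rpl3l, a paralogue of striated muscle, and Rpl10l, a paralogue of testis, did not.

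Start sites are shown first, because the tract at the first bases is what these genes are best known to share. RefSeq start sites on GRCm38.p6 (mm10) were matched for 57 of the 77 usual subunits. Each sequence below runs from 10 bases before the annotated start to 20 after it, 30 bases on the gene's own strand. The longest run of C and T is in capitals, or the first of them where runs are equally long. Rpl28, Rpl38, Rps6 and Rps27 are described in the results, and Rpl35a, Rpl35 and Rps18 show other forms of the tract. Rps27rt is a retrotransposed copy of Rps27 shown beside it.
Rpl28 (chr7:4792955-4792984, plus strand): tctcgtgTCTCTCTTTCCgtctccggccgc
Rpl38 (chr11:114668570-114668599, plus strand): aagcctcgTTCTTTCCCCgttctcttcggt
Rpl35a (chr16:33056472-33056501, plus strand): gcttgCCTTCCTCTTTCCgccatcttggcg
Rpl35 (chr2:39005112-39005141, minus strand): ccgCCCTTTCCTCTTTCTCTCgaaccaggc
Rps18 (chr17:33955646-33955675, minus strand): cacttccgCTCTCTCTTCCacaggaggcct
Rps6 (chr4:86857348-86857377, minus strand): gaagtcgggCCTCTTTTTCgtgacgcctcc
Rps27 (chr3:90213629-90213658, minus strand): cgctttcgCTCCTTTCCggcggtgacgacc
Rps27rt (chr9:114982720-114982749, minus strand): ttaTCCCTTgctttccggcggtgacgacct

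The longest C and T run was 9 to 18 bases in the 7 usual subunits shown and 6 bases in Rps27rt. In Rps27rt an equally long run, ctttcc, follows the marked one and lies nearer the annotated start, in small letters. The run marked in Rps27 ends with the same letters. The letters CTTTCC, the core of such a tract, stood on the gene's strand in 36.8% of the 57 windows from 250 bases before to 50 after the start, against 14.0% of 27025 windows of the same kind over all genes, and on either strand in 47.4% against 26.3%. CCGGAAG, a site form bound by ETS factors, was found on either strand in 40.4% against 9.12%. AAGATGG, a YY1 site form, was found in 14.0% against 6.48%, and TATAAA in 8.77% against 14.2%, again on either strand. CCGGAAG reads CTTCCGG on the other strand, which can share bases with CTTTCC, and AAGATGG can share its first bases with the end of CCGGAAG. A match describes the sequence alone. By position the 77 usual subunits were spread over 19 chromosomes, with 14 of them on chromosome 7 and 7 on chromosome 11.

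Within the node the subunits were among the most abundant messages. Levels between genes are compared per length, as transcripts per 1000000 (TPM) over 1 annotated transcript per gene. Rplp1, an acidic protein of the stalk that recruits elongation factors, was highest at 4699 ± 443 TPM (SD, n = 12). It was followed by Rps27 at 4038 ± 478, Rps15 at 3637 ± 337, Rplp0, the base of the stalk, at 3634 ± 212, and Rps14 at 3541 ± 258 TPM. From Rps27 down, neighbours in this order differed by less than the SD of the higher one. At the other end Rpl10l and Rpl3l had nearly no counts, Rpl39l, a testis paralogue, had 1.91 ± 0.94 TPM, Rpl24 had 2.39 ± 0.82 TPM and Rps12l1 had 3.46 ± 0.85 TPM. The order depends on the transcript chosen: Rps15a and Rps20, both with long chosen transcripts (5179 and 3706 bases), came to 247 and 435 TPM although they held 590 and 744 CPM.

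Rpl24, Rps10 and Rpl13a are subunits of every ribosome, yet Rpl24 had 5 to 23 counts a library, Rps10 167 to 261 and Rpl13a 253 to 479, while the other 74 usual subunits had a mean of at least 100 CPM. Each of the 3 shares exon bases on the same strand with another annotated gene (Gm28037 for 47.0% of Rpl24's exon bases, Gm45713 for 35.4% of Rpl13a's, RPS10-NUDT3 for 20.6% of Rps10's), and these partners held 0 counts. The processed pseudogene Rps10-ps2 held 257 CPM, against 11.02 CPM in Rps10. Rpl36al, with 15 to 40 counts, shares 24.5% of its exon bases with Gm49383, which held at most 7 counts. How the authors' counter treated reads of overlapping genes is not given in the sources used here, and its part in these levels was not tested. The low values are therefore uncertain as levels of expression.

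The members together took 5.28% ± 0.34 of all counts (SD, n = 12). The share was 5.17%, 4.87% and 5.05% in NT NC replicates 1 to 3 and 6.05%, 5.39% and 5.35% in T NC. It was 5.37%, 5.26% and 5.08% in NT NDE and 5.47%, 5.53% and 4.76% in T NDE. All T NC libraries lay above all NT NC libraries, while NT NDE and T NDE overlapped each other and overlapped NT NC. T NC replicate 1 was the highest of the 12 and T NDE replicate 3, a salivary library, the lowest. With salivary and antigen receptor genes taken out of the totals, T NDE replicate 3 came to 5.01% and T NC replicate 1 to 6.12%, and the group means were 5.13% ± 0.17, 5.66% ± 0.41, 5.29% ± 0.14 and 5.37% ± 0.31 (SD, n = 3) in NT NC, in T NC, then in NT NDE and last in T NDE. Counts of the small subunit stood in a ratio of 0.846 ± 0.012 (SD, n = 12) to those of the large subunit. That ratio was 0.851 to 0.861 in NT NC and 0.839 to 0.844 in T NC, which did not overlap, 0.819 to 0.847 in NT NDE and 0.836 to 0.858 in T NDE.

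**Figure D1:**
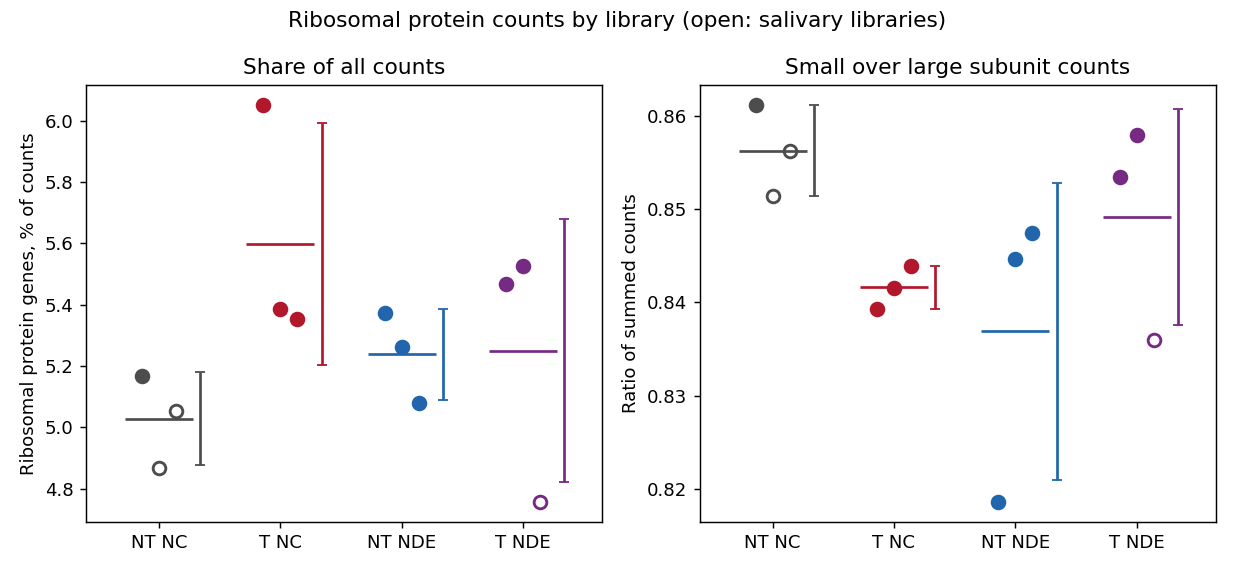
Share of all counts in the 93 ribosomal protein genes (left, percent) and ratio of small to large subunit counts (right), 1 point per library with the group mean as a line and 1 SD as a bar; open points are the salivary libraries and the axes do not start at 0. The 3 T NC libraries lie between 5.35% and 6.05%, above the NT NC libraries at 4.87% to 5.17%.

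With nerves intact, ribosomal protein genes lay slightly higher in the nodes of tumour mice. In T NC against NT NC, 86 of 91 tested members had a log2 fold change above 0 (48.0% of all tested genes did), with a median of 0.16 (1.12-fold) against -0.01 over all genes. No member passed edgeR's quasi-likelihood test after Benjamini-Hochberg adjustment, with a smallest adjusted p of 0.465; over all genes 0.00% passed. At an unadjusted p under 0.05 there were 42 members, all higher, or 46.2% of the members, against 7.80% of all genes in either direction and 4.58% in that direction. The 3 T NC libraries lay above the 3 NT NC libraries without overlap for 51 members (56.0%), against 7.81% of all genes, and below them for 1 member, Rps3a2, against 7.21%. Limma-voom gave 0 adjusted calls and 42 at an unadjusted p under 0.05, and DESeq2 gave 0 and 50. Over all genes limma-voom gave 0 calls and 8.46% at that p, and DESeq2 gave 40 calls and 7.72%.

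The size of that shift rested partly on single libraries. T NC replicate 1 held the highest value of the 12 libraries for 57 of the 74 usual subunits with at least 100 CPM, and NT NC replicate 2, a salivary library, the lowest for 44. Without T NC replicate 1 the median fell to 0.09, with 78 of 91 higher and 22 at an unadjusted p under 0.05 (5.62% of all genes). Leaving out NT NC replicate 2 gave a median of 0.13, with 87 higher and 19 at that p (5.48% of all genes). Leaving out the 3 salivary libraries gave a median of 0.15, with 87 higher. The last fit has NT NC replicate 1 alone in its group, which is assumed to vary like the other groups. For it only effect sizes and their signs are given, here and below, without counts at a p-value. It therefore does not show how those counts depend on the salivary libraries. Over the 12 fits that left out 1 library the median ran from 0.09 to 0.20. Neutrophil markers moved with the same groups: all 13 were detected, and their summed level was 161 to 285 CPM in NT NC and 371 to 628 CPM in T NC, without overlap. T cell markers (2052 to 2480 against 2055 to 2419 CPM) and 16 cell cycle genes (856 to 1363 against 1162 to 1364 CPM) overlapped in their sums. All 16 cell cycle genes had a log2 fold change above 0 (median 0.13, 1 at an unadjusted p under 0.05), as most members did. So had 10 of 15 stroma (median 0.11), 8 of 12 B cell (median 0.02) and 7 of 8 tested adipocyte markers (median 1.19). Of 13 macrophage and monocyte markers 12 lay below 0 (median -0.05). The part of cell composition in the shift was not tested.

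Among single genes Rpl28 (ENSMUSG00000030432, chromosome 7, 4792874 to 4795066 on the plus strand of mm10), a large subunit protein, had the largest log2 fold change of the usual subunits with at least 100 CPM. It lay at 434, 395 and 424 CPM in NT NC and at 539.7, 498 and 509.5 CPM in T NC. All T NC values were above all NT NC values, and the log2 fold change was 0.31 ± 0.08 (SE, edgeR adjusted p = 0.465). Rps28 and Rps21, small subunit proteins, and Rpl36 each came to 0.29 (SE 0.13, 0.10 and 0.08), Rpl37a to 0.28 ± 0.07 and Rpl39, a protein of the peptide exit tunnel, to 0.27 ± 0.07. Rpl39 had 226, 220.4 and 230.4 CPM in NT NC and 277, 272 and 268 CPM in T NC, without overlap. Low values were found for Rps4x (0.03 ± 0.07) and Rps3a1 (0.04 ± 0.07), whose groups overlapped. Rps27a, which encodes a subunit joined to ubiquitin, was the only one of the 74 usual subunits with at least 100 CPM below 0 (-0.14 ± 0.18).

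Nerve inhibition without a tumour gave a smaller and less uniform shift. In NT NDE against NT NC, 63 of 91 members had a log2 fold change above 0 (51.1% of all genes), with a median of 0.08 against 0.00 over all genes. Again 0 members passed the adjusted test in edgeR (smallest adjusted p = 0.215; 0.00% of all genes passed), and 21 had an unadjusted p under 0.05, 20 of them higher, against 10.4% of all genes and 5.67% in the higher direction. Non-overlapping higher values were found for 21 members (23.1%) against 9.73% of all genes, and non-overlapping lower values for 4 (4.4%) against 9.17%. DESeq2 called 138 of all 17301 genes, 2 of them members. These were Rpl28, with a log2 fold change of 0.33 (DESeq2 adjusted p = 0.0225), and the retrotransposed copy Rps3a2, with -0.71 (DESeq2 adjusted p = 0.0205). Without any filter on low counts edgeR also called Rpl28 (adjusted p = 0.0481), 1 of 43 calls over 30719 genes. Without NT NC replicate 2 the median was 0.04, with 54 higher and 9 at an unadjusted p under 0.05. Without NT NDE replicate 1 it was 0.05, with 10 at that p. Without NT NDE replicate 2 there were 12 at that p and without NT NC replicate 1 there were 13. In these fits 6.96% (without NT NC replicate 2) to 9.76% (without NT NC replicate 1) of all genes had that p. Without the 3 salivary libraries the median was 0.05, with 57 higher.

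Neutrophil markers were also higher there (332 to 404 CPM in NT NDE against 161 to 285 CPM in NT NC, without overlap), and cell cycle genes overlapped in their sums (1223 to 1530 against 856 to 1363 CPM). Each of the 16 cell cycle genes had a log2 fold change above 0, with a median of 0.24 beside the members' 0.08, and 2 had an unadjusted p under 0.05. All 14 T cell markers lay below 0 (median -0.14, 3 at that p), with overlapping sums of 1883 to 2185 against 2052 to 2480 CPM. Above 0 lay 11 of 12 B cell markers (median 0.06) and 12 of 15 stroma markers (median 0.08). So did 10 of 13 macrophage and monocyte markers (median 0.07) and all 8 tested adipocyte markers (median 0.46). The part of these cells in the members' values was not tested.

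Rps28, Rpl38, Rpl28 and Rpl19 had the highest log2 fold changes of that comparison among the usual subunits with at least 100 CPM. Rps28 (ENSMUSG00000067288, chromosome 17, 33819027 to 33824562 on the minus strand of mm10) had 211, 168 and 207 CPM in NT NC and 282, 265 and 229 CPM in NT NDE, with no overlap, and a log2 fold change of 0.40 ± 0.13 (SE, edgeR adjusted p = 0.326). Rpl38 (ENSMUSG00000057322, chromosome 11, 114668524 to 114672331 on the plus strand of mm10), a large subunit protein whose loss in mice alters the axial skeleton, had 104, 93.4 and 102 CPM in NT NC and 141, 127 and 117 CPM in NT NDE, again without overlap (0.36 ± 0.11, edgeR adjusted p = 0.319). Rpl28 reached 589, 510.5 and 477 CPM in NT NDE, above the NT NC values already given (0.33 ± 0.08). Rpl19 was at 231, 219 and 233 CPM in NT NC and at 335, 274 and 245 CPM in NT NDE (0.32 ± 0.11), with NT NDE replicate 1 above the other 11 libraries. At the low end Rps15a had 598, 571 and 592 CPM in NT NC against 514, 542 and 562 CPM in NT NDE, lower without overlap (-0.12 ± 0.07, edgeR adjusted p = 0.588). Rps27 (-0.11 ± 0.11) overlapped between the groups.

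In mice with a tumour most members lay below 0 in the nerve comparison. In T NDE against T NC, 10 of 91 members were above 0 and 81 below (52.7% of all genes were above 0), with a median of -0.07 against 0.01 over all genes. 0 members passed (smallest edgeR adjusted p = 0.850; 0.00% of all genes passed) and 2 had an unadjusted p under 0.05, against 5.83% of all genes. T NDE lay below T NC without overlap for 7 members (7.69%), against 4.62% of all genes, and above it for 0, against 4.53%. Without T NC replicate 1 the median was -0.02 with 32 above 0, and without T NDE replicate 3 it was -0.03 with 27 above 0, so 1 library in each group moved it. Without the 3 salivary libraries it was also -0.03, with 27 above 0. At an unadjusted p under 0.05 there were 6 members without T NC replicate 2 or without T NC replicate 3, and 3 without T NDE replicate 2. There was 1 without T NDE replicate 3 and there were 0 without T NC replicate 1. Of all genes 3.7% had that p without T NC replicate 1 and 5.8% to 6.4% in the other fits named. Neutrophil markers were lower in T NDE (255 to 339 against 371 to 628 CPM) and so were T cell markers (1903 to 2045 against 2055 to 2419 CPM), both without overlap. Of 15 stroma markers 10 lay below 0 and 5 above (median -0.25, 6 at an unadjusted p under 0.05). Macrophage and monocyte markers were split (6 above and 7 below). Other lists went the other way from the members. Above 0 lay 12 of 16 cell cycle genes (median 0.07), 8 of 12 B cell markers (median 0.09) and all 8 tested adipocyte markers (median 0.49). The part of these cells was not tested. Rps27 stood at 816, 682 and 642 CPM in T NC and at 691, 647 and 564 CPM in T NDE, which overlapped (-0.17 ± 0.11).

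The tumour comparison under nerve inhibition showed little shift. In T NDE against NT NDE, 51 of 91 members were above 0 (50.3% of all genes), with a median of 0.01 against 0.00 over all genes. 0 members passed (smallest edgeR adjusted p = 1.00; 0.00578% of all genes passed) and 3 had an unadjusted p under 0.05, against 3.70% of all genes. T NDE lay above NT NDE without overlap for 3 members, against 4.09% of all genes, and below it for 0, against 4.36%. Without T NDE replicate 3 the median was 0.06, with 70 above 0 and 12 at that p (6.8% of all genes). Without NT NDE replicate 1 the median was 0.04 with 71 above 0 and 1 at that p (2.84% of all genes). Without T NDE replicate 2 it was -0.01 with 35 above 0 and 0 at that p (4.32% of all genes). Without T NDE replicate 1 it was -0.01 with 42 above 0, and with library totals in place of TMM scaling it was -0.00 with 45 above 0, so its sign is not settled. Without the 3 salivary libraries the median was 0.07, with 76 above 0. Rpl34 had the highest value among the usual subunits with at least 100 CPM, at 324, 353 and 356 CPM in NT NDE against 410.4, 396 and 359 CPM in T NDE, without overlap (0.17 ± 0.07, edgeR adjusted p = 1.00).

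The difference between these effects was tested as the interaction, the nerve effect in T mice minus the nerve effect in NT mice. Of 91 members, 9 were above 0 (51.1% of all genes), with a median of -0.14 against 0.01 over all genes. 0 members passed (smallest edgeR adjusted p = 0.622; 0.00% of all genes passed), and 18 had an unadjusted p under 0.05, all below 0, against 7.11% of all genes and 3.95% in that direction. Rpl28 came to -0.42 ± 0.11 (SE, edgeR adjusted p = 0.622), the lowest of the usual subunits with at least 100 CPM, and to -0.30 without the 3 salivary libraries. In T NDE it lay at 500.2, 516 and 439.7 CPM, above all 3 NT NC libraries, with the value of its salivary replicate 3 below all libraries of T NC and NT NDE. Rpl38 followed with -0.35 ± 0.16 (-0.17 without the salivary libraries), at 118, 124 and 117 CPM in T NC and 144, 118 and 98.3 CPM in T NDE, and Rps28 had -0.35 ± 0.18. For Rps28 the values were 216, 241 and 259 CPM in T NC and 288, 252 and 205 CPM in T NDE, which overlapped. Without the 3 salivary libraries 21 members were above 0 and the median was -0.07. Without T NDE replicate 3 the median was -0.08, with 11 at an unadjusted p under 0.05. The count was 10 without T NC replicate 1 and 9 without NT NDE replicate 1. It was 12 without NT NC replicate 2 and 27 without T NDE replicate 1. In these fits 5.37% (without NT NDE replicate 1) to 7.4% (without T NDE replicate 1) of all genes had that p. Some marker lists lay on the same side of 0. All 13 neutrophil markers lay below 0 (median -1.70, 10 at an unadjusted p under 0.05), as did all 16 cell cycle genes (median -0.10, 0 at that p). So did 12 of 15 stroma markers (median -0.30, 5 at that p), 9 of 14 T cell, 6 of 9 plasma cell and 8 of 13 macrophage and monocyte markers. Other lists did not. All tested salivary (14), melanocyte (4) and skeletal muscle markers (3) lay above 0. B cell (6 and 6) and adipocyte markers (4 and 4) were split. The stroma markers, all detected, summed to 1866 to 2200.5 CPM in NT NC, 1930 to 2509 in T NC, 1840 to 2233 in NT NDE and 1616 to 2148 in T NDE, and cell cycle genes to 1321 to 1399 CPM in T NDE. Their part in the interaction was not tested.

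Averaged over the other factor, the tumour comparison gave 85 of 91 members above 0 (49.6% of all genes), a median of 0.09 against -0.00, and 0 adjusted edgeR calls (0.00% of all genes), with 19 members at an unadjusted p under 0.05, all higher, against 4.50% and 2.25% in that direction. Leaving out T NDE replicate 3 gave 46 at that p, a median of 0.12 and 1 call, Rpl39 (log2 fold change 0.24, edgeR adjusted p = 0.0297). In that fit 8.12% of all genes had that p and 22 of 17645 genes were called. Without T NDE replicate 2 there were 8 at that p, without NT NC replicate 2 there were 10, and without T NC replicate 1 there were 12, with a median of 0.06. Without T NDE replicate 1 there were also 12. In the fits that gave 8 to 12 members, 3.01% (without T NDE replicate 2) to 5.42% (without T NDE replicate 1) of all genes had that p. Without the 3 salivary libraries 88 members were above 0 and the median was 0.12. The averaged nerve comparison gave 45 members above 0 and 46 below (53.7% of all genes above 0), with a median of -0.00 and 0 adjusted calls, where 0.0983% of all genes passed. At an unadjusted p under 0.05 there were 6 members, against 9.20% of all genes. That count was 1 without NT NC replicate 2, and 2 without NT NDE replicate 1, NT NDE replicate 2 or T NDE replicate 1. It was 3 without T NDE replicate 2 and 14 without T NDE replicate 3. In these fits 7.09% (without T NDE replicate 2) to 11.4% (without T NDE replicate 1) of all genes had that p. The median ran from -0.03 to 0.03 over the 12 fits that left out 1 library. Without the 3 salivary libraries 50 members were above 0, with a median of 0.01.

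**Figure D2:**
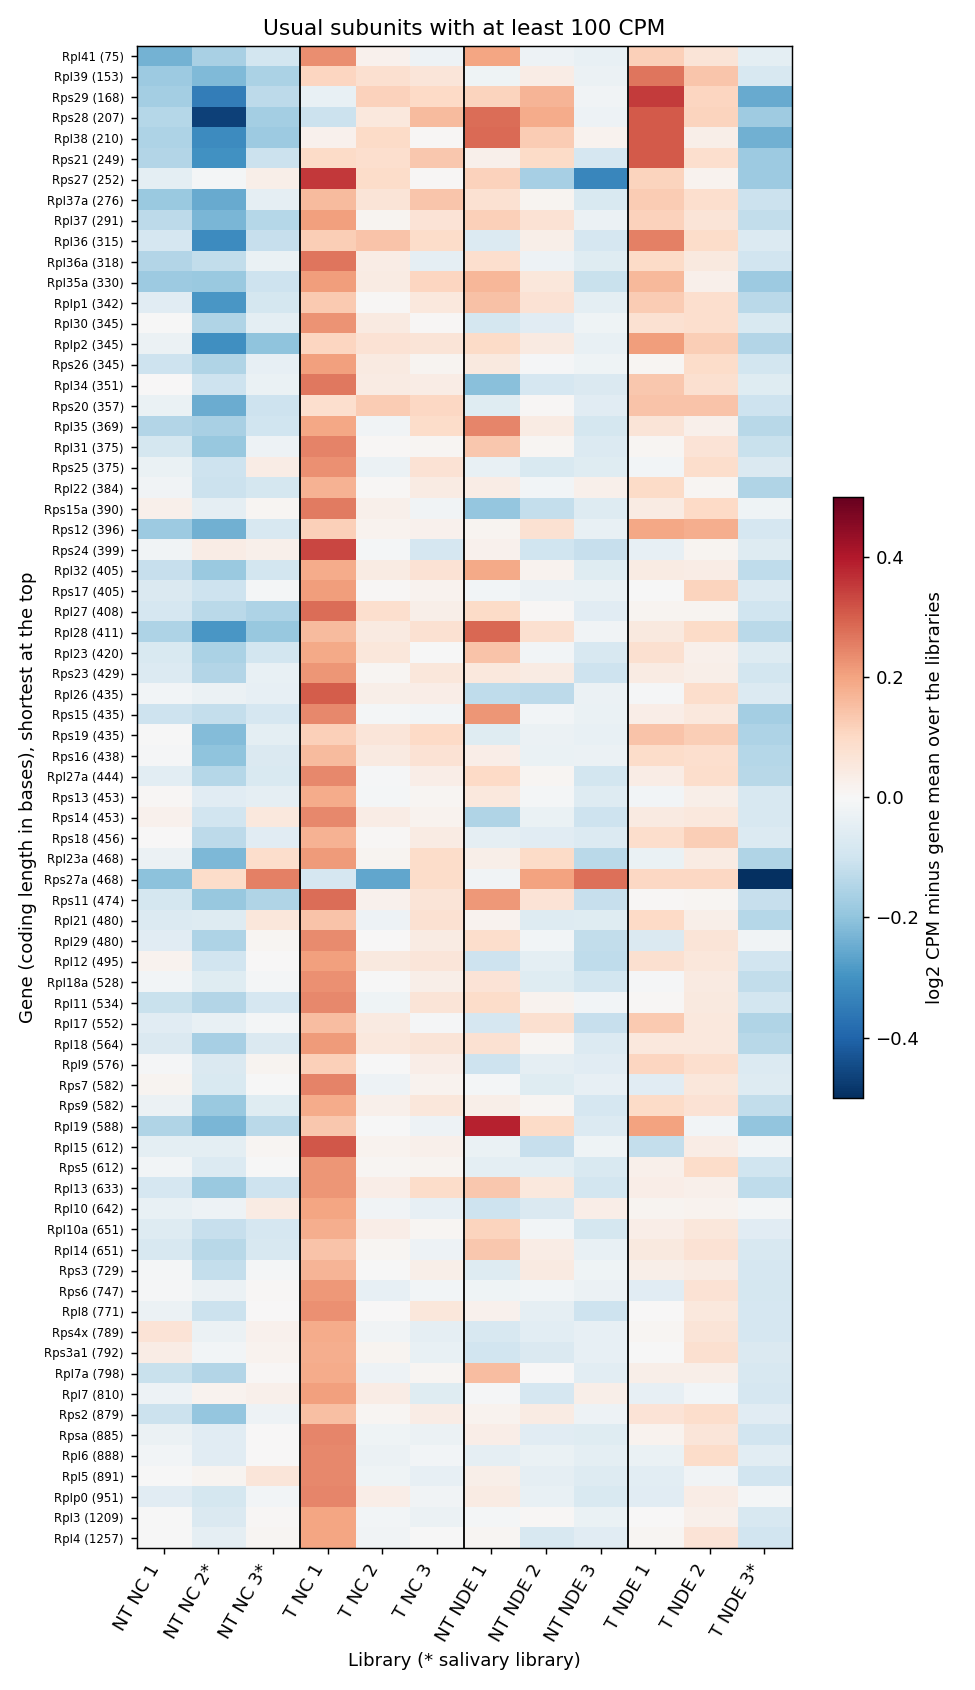
Level of 73 of the 74 usual subunits with at least 100 CPM in each of the 12 libraries, as log2 CPM minus the gene's mean (blue lower, red higher, colours end at 0.5 either way), genes ordered by coding length in bases with the shortest at the top. T NC replicate 1 is red for nearly all genes and holds the highest value of 57 of them, while the short genes at the top are blue in all 3 NT NC libraries.

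Coding length, which the choice of members did not use, went with the fold changes against NT NC. The pattern was noticed in the data and is a description. Coding length was counted without the stop codon, from the same annotated transcripts, for the 74 usual subunits with at least 100 CPM. Medians of the log2 fold change in T NC against NT NC were 0.27 for the 9 genes of up to 300 bases, 0.19 for the 27 genes above 300 and up to 450, 0.13 for the 17 above 450 and up to 600, and 0.10 for the 21 longer ones. In NT NDE against NT NC these medians were 0.21, 0.10, 0.03 and 0.00. Across these 74 genes the Pearson r of coding length with the log2 fold change was -0.58 and -0.44 in these comparisons, which share the NT NC libraries. In T NDE against T NC it was -0.19, and in T NDE against NT NDE -0.04. These last values turned on single libraries. In T NDE against T NC r was -0.35 without T NDE replicate 3 or without the 3 salivary libraries, 0.13 without T NC replicate 1 and 0.28 without T NDE replicate 1. In T NDE against NT NDE it was -0.27 without T NDE replicate 3 or without the salivary libraries, -0.15 without NT NDE replicate 1, 0.06 without NT NDE replicate 3 and 0.20 without T NDE replicate 1.

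Other protein-coding genes showed a like order of smaller size in the comparisons with NT NC. By library the orders differed in T NC, as given below. Over 9830 other genes with at least 10 CPM, the median in T NC against NT NC was 0.11 for 180 genes of up to 300 bases, 0.09 up to 450, 0.06 up to 600, 0.03 up to 1000, -0.00 up to 2000 and -0.03 for longer genes. In NT NDE against NT NC the medians of the shortest and longest classes were 0.07 and 0.00. Ribosomal protein genes of up to 300 bases therefore lay 0.27 above 0 where other genes of that length lay 0.11 above 0. Without the 3 salivary libraries the 4 medians of the ribosomal protein genes were 0.24, 0.16, 0.14 and 0.10 in T NC and 0.19, 0.07, 0.02 and -0.01 in NT NDE. Without those libraries T NDE against NT NDE also ran from high to low with length, at 0.11, 0.07, 0.06 and 0.05, where with all libraries the medians were -0.00, 0.02, 0.01 and 0.01. T NDE against T NC then gave 0.10, -0.02, -0.05 and -0.03, beside -0.02, -0.09, -0.09 and -0.07 with all libraries. Without T NC replicate 1 the T NC medians were 0.26, 0.13, 0.08 and 0.005 (the longest class had 14 of 21 genes above 0), so the longer genes' shift rested on that library and that of the shortest class did not. The cause of the order by length was not tested.

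By library, the median deviation of the 9 shortest genes from their own mean was -0.15, -0.25 and -0.13 in NT NC and 0.11, 0.08 and 0.07 in T NC (log2 scale). It was 0.11, 0.07 and -0.03 in NT NDE and 0.27, 0.08 and -0.18 in T NDE. The 3 NT NC libraries were thus lower than every library but T NDE replicate 3. The 21 longest genes stayed between -0.08 and 0.05 in every library but T NC replicate 1, where they reached 0.20. In that library all length classes of the subunits were high, from 0.11 to 0.21. The shortest class minus the longest was -0.09, 0.08 and 0.08 for the subunits in T NC replicates 1 to 3. For the other coding genes, whose longest class lies above 2000 bases, it was 0.17, 0.0015 and 0.04. In NT NC it was below 0 for both, at -0.13, -0.19 and -0.14 for the subunits and -0.11, -0.09 and -0.05 for the other genes.

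**Figure D3:**
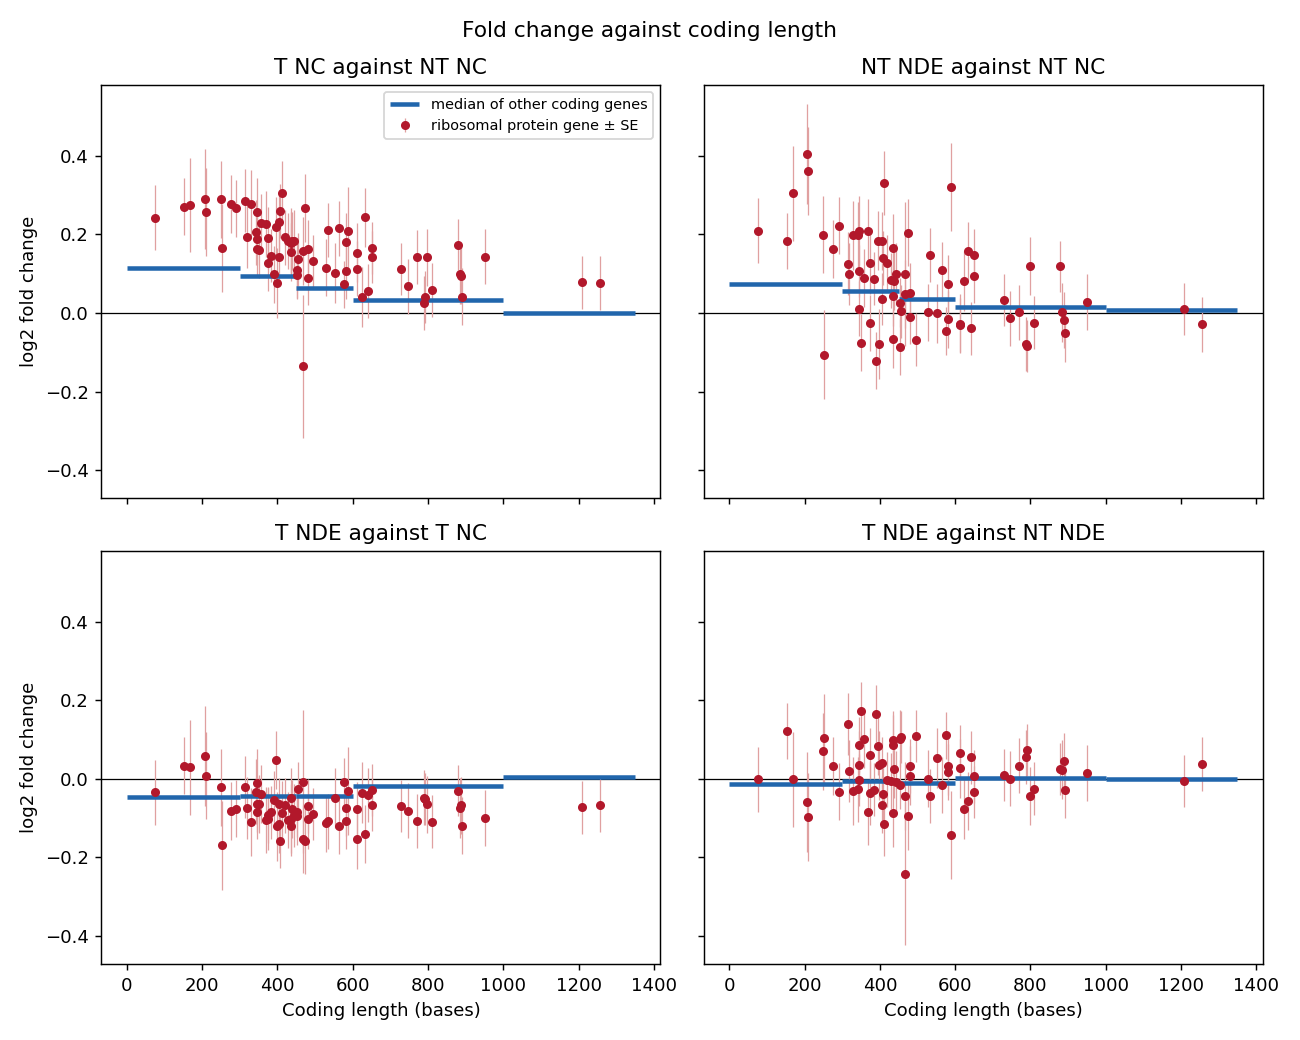
Log2 fold change (y axis) against coding length in bases (x axis) for the 74 usual subunits with at least 100 CPM in 4 comparisons, with SE bars; blue lines are the medians of other coding genes in the same length range. Short ribosomal protein genes lie highest in T NC against NT NC (median 0.27 up to 300 bases) and in NT NDE against NT NC (0.21), while the medians in T NDE against NT NDE lie between -0.00 and 0.02 with all libraries included.

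Subunits with known roles are given next in T NC against NT NC. The stalk proteins Rplp0, Rplp1 and Rplp2 recruit elongation factors to the large subunit. Rplp0 lay at 2185, 2143 and 2255 CPM in NT NC and at 2697, 2327 and 2248 CPM in T NC, which overlapped (0.14 ± 0.07). Rplp1 lay at 1038, 879.9 and 1015 CPM in NT NC and at 1180.3, 1083 and 1117 CPM in T NC, without overlap. Rpl5 and Rpl11, which with the 5S RNA bind Mdm2 and so link ribosome assembly to p53, are given side by side, and the difference between them was not tested. Rpl11 had 520.0, 506 and 529.7 CPM in NT NC and 663, 552 and 587 CPM in T NC, without overlap (0.21 ± 0.07, edgeR adjusted p = 0.494), and Rpl5 had 1280.4, 1295 and 1340.0 CPM against 1517, 1264 and 1248 CPM, which overlapped (0.04 ± 0.07). Rps6, the substrate of the S6 kinases, was at 735, 722 and 740.3 CPM in NT NC and at 857, 717 and 730.1 CPM in T NC, which overlapped. Rpsa, first described as a laminin receptor, was at 2072, 2033 and 2118 CPM against 2510.2, 2087 and 2072 CPM and overlapped as well. In each of Rplp0, Rpl5, Rps6 and Rpsa the highest of the 12 libraries was T NC replicate 1.

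Across the 12 libraries most subunits kept step. The Pearson r of a usual subunit's log2 CPM with the mean of the others had a median of 0.83 over the 74 genes with at least 100 CPM (n = 12 libraries, which share their depth and scaling). The SD of log2 CPM over the libraries had a median of 0.103 for these genes, against 0.0849 for 2436 other genes at that level. Among members with at least 10 CPM it was smallest for Rpl3 (0.0698), Rps13 (0.0699), Rpl9 (0.0734), Rps3 (0.0742) and Rpl10 (0.0747). It was largest for the copies Rps3a2 (0.371) and Rps3a3 (0.248), then Rps27a (0.241), Rps28 (0.225) and Rps29 (0.198).

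Rps27a departed most from the other abundant subunits, with an r of 0.10. It lay at 371, 456 and 510.3 CPM in NT NC, 404, 358 and 456 in T NC, 423, 492 and 518 in NT NDE, and 459, 459.9 and 292 in T NDE. All groups overlapped, and the lowest value was in T NDE replicate 3 and the highest in NT NDE replicate 3. Without the 3 salivary libraries its log2 fold change in T NC against NT NC was 0.14, not -0.14.

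Paralogues and copies were compared with their parent gene within each library, as log2 ratios of CPM + 0.5. Rpl22l1 is the paralogue of Rpl22, a subunit needed for T cell development, and Rps27l is the p53-responsive paralogue of Rps27. Rpl22 exceeded Rpl22l1 by 3.36-fold, Rpl7 exceeded Rpl7l1 by 11.9-fold and Rps27 exceeded Rps27l by 21.1-fold. Rpl36a exceeded Rpl36al by 125-fold, a ratio as uncertain as the low Rpl36al counts described above. Rps4x exceeded the retrotransposed Rps4l by 180-fold. Over 7 pairs and 6 contrasts, 42 exact two-sided permutation tests gave no adjusted p under 0.700. With 3 libraries against 3 the smallest p these tests allow is 0.1, so those contrasts could not pass.

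Rpl22l1 had 83.5, 73.5 and 83.2 CPM in NT NC, 84.8, 93.1 and 90.9 in T NC, 68.3, 83.4 and 80.1 in NT NDE and 93.4, 90.1 and 80.9 in T NDE. Its log2 ratio to Rpl22 was -1.88 ± 0.17 in NT NDE and -1.66 ± 0.02 in T NDE (SD, n = 3), which did not overlap (difference 0.22, exact permutation p = 0.1, adjusted p = 0.700). For Rps4l against Rps4x the ratio was -7.70 ± 0.21 in NT NC and -7.23 ± 0.14 in T NC, without overlap (difference 0.47, exact permutation p = 0.1, adjusted p = 0.700). Rps4l itself had 106 to 253 counts a library. It lay at 5.96, 7.16 and 5.60 CPM in NT NC and at 10.3, 7.66 and 9.05 CPM in T NC (0.53 ± 0.17, edgeR adjusted p = 0.494). The acidic pair Rplp2 and Rplp1 held the steadiest ratio, -0.99 ± 0.05 over the 12 libraries.

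**Figure D4:**
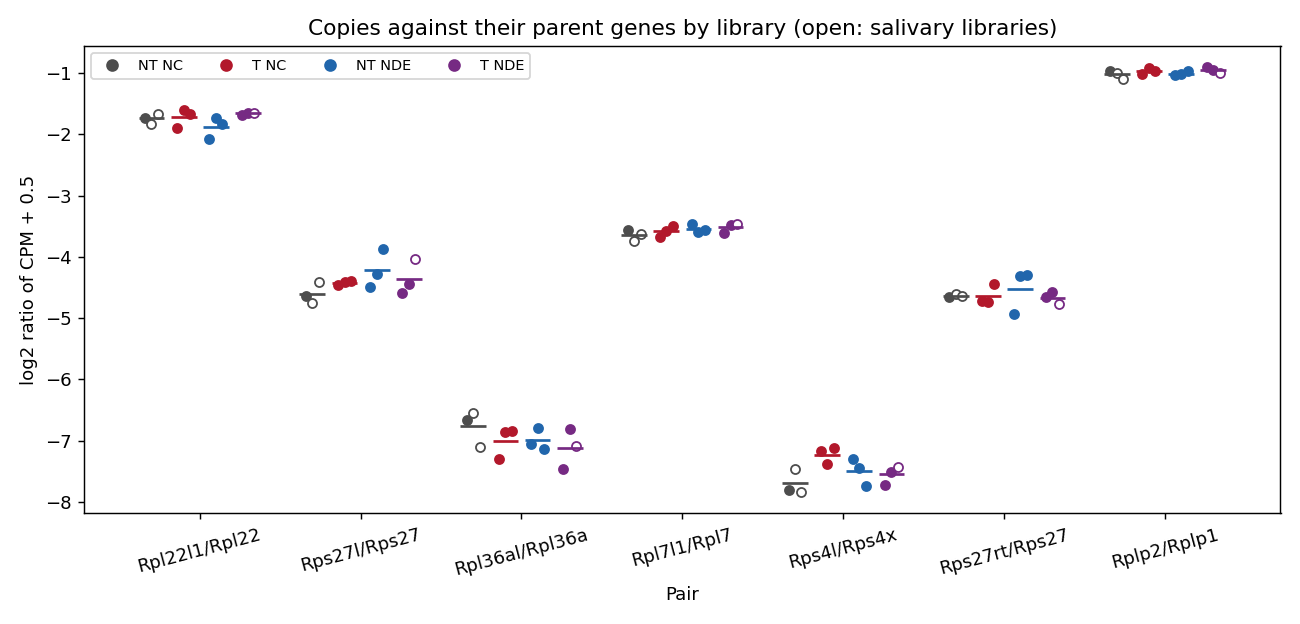
Log2 ratio of CPM + 0.5 of a copy or paralogue to its parent gene in each library (1 point per library, group mean as a line, open points the salivary libraries), for 7 pairs. Ratios range from about -1 for Rplp2/Rplp1 to below -7 for Rps4l/Rps4x, and groups overlap in most pairs.

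Near-identical copies make some of these counts uncertain. The coding sequences of Rps27, its retrotransposed copy and its paralogue are printed because they show why reads can be told apart for one and not for the other. They come from GENCODE M21 on mm10, without the stop codon, and capitals in Rps27l mark bases that differ from Rps27.
Rps27 (exons within chr3:90212728-90213615, minus strand): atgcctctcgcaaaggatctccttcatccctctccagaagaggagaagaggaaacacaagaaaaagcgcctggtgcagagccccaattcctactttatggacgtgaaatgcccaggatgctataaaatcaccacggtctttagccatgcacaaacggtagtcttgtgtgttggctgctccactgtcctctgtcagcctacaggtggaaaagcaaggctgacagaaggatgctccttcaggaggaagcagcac
Rps27rt (chr9:114982456-114982707, minus strand): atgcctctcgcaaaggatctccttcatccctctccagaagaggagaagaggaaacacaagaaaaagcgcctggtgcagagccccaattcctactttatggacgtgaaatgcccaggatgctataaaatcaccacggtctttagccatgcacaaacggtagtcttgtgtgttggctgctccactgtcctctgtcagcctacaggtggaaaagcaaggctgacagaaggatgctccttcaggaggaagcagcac
Rps27l (exons within chr9:66946175-66949354, plus strand): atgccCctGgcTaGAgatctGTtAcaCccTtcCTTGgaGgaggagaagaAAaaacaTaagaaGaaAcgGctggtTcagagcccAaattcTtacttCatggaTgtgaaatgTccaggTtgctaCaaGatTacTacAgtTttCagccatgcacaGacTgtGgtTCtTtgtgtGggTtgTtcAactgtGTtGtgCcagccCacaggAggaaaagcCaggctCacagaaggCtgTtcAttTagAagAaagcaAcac

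Rps27rt matches all 252 coding bases of Rps27, and it was credited with 25.8 CPM, 4.01% of the CPM of Rps27. Rps27l carries 60 capitals over the same length and had 30.04 CPM. Rps27l lay at 24.3, 23.2 and 30.3 CPM in NT NC and at 36.6, 31.6 and 29.9 CPM in T NC, which overlapped (0.34 ± 0.11, edgeR adjusted p = 0.521). Rps12l1 was also identical to its parent over the coding bases, Rpl37rt differed at 1 of 291, Rps3a2 at 4 of 792 and Rps3a3 at 9 of 792.

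Rps3a2 had the lowest log2 fold change of all members in NT NDE against NT NC. It had 56.7, 59.5 and 57.9 CPM in NT NC and 30.8, 32.1 and 43.9 CPM in NT NDE, lower without overlap (-0.70 ± 0.21, edgeR adjusted p = 0.321). In T NC it had 54.2, 40.6 and 38.7 CPM, also below NT NC without overlap, and in T NDE 28, 47.5 and 45.4 CPM. Its parent Rps3a1 lay between 1215 and 1471 CPM in all libraries, and Rps3a2 held 3.43% of the parent's mean CPM. With 99.5% of the coding bases shared, the division of reads between them cannot be checked.

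Rps19bp1, the bystander, had 12.4, 12.2 and 11.6 CPM in NT NC and 15, 15.1 and 15.3 CPM in NT NDE, higher without overlap (0.33 ± 0.10, edgeR adjusted p = 0.301). The 300 pseudogenes left out held 5.004% to 5.69% as many counts as the members in each library. Rpl17-ps10 held 270 CPM, Rps10-ps2 257 and Rps6-ps4 242, and for Rpl17 its 11 copies together held 147% of the CPM of the gene itself. Of 80 pseudogenes with enough counts, 54 were above 0 in T NC against NT NC (median 0.10) and 36 in NT NDE against NT NC (median -0.02), with 0 adjusted edgeR calls in either.

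Other genes of the translation machinery were counted from lists of known members. In T NC against NT NC, 7 of 8 elongation factors were above 0 (median 0.06), as were 23 of 28 initiation factors (median 0.05). So were 25 of 36 ribosome biogenesis factors (median 0.02) and 9 of 13 genes of RNA polymerase I (median 0.06), against 48.0% of all genes. At an unadjusted p under 0.05 these lists had 0, 4, 3 and 2 genes, against 7.80% of all genes. All 11 tested genes that share the oligopyrimidine start, such as Fau, Rack1 and Tpt1, were above 0 (median 0.10, 2 at that p). In NT NDE against NT NC the same lists had 7 of 8, 19 of 28, 26 of 36, 8 of 13 and 11 of 11 above 0, with medians of 0.04, 0.03, 0.05, 0.11 and 0.03. Of all genes 51.1% were above 0 in that comparison. The lists had 0, 2, 4, 1 and 2 genes at an unadjusted p under 0.05, against 10.4% of all genes. No gene of any list passed the adjusted edgeR test in any of the 7 contrasts. Of 10 small nucleolar RNA host genes 7 were above 0 in either comparison (medians 0.09 and 0.06), of 10 transcription and surveillance factors also 7 (medians 0.01 and 0.04), and of 12 genes of the integrated stress response 7 and 6 (medians 0.03 and 0.01). Of 16 mTOR and LARP1 genes, 7 were above 0 in T NC against NT NC (median -0.00) and 10 in NT NDE against NT NC (median 0.03). From the host genes to the mTOR list, 2, 2, 1 and 1 genes had an unadjusted p under 0.05 in T NC against NT NC. In NT NDE against NT NC these counts were 1, 1, 0 and 3.

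Named by the smallest p, in T NC against NT NC these were Eif5a, a factor that eases stalled peptide bonds (0.13 ± 0.07), Eif3g of the initiation factor eIF3 (0.18 ± 0.06), Bop1, a factor of large subunit assembly (0.19 ± 0.06), Polr1c, shared by RNA polymerases I and III (0.22 ± 0.06), Snhg6, a host of small nucleolar RNA (0.32 ± 0.09), and Rictor of mTOR complex 2 (-0.16 ± 0.07). In NT NDE against NT NC Bop1 came to 0.25 ± 0.06 (edgeR adjusted p = 0.186) and Rictor to -0.23 ± 0.07 (edgeR adjusted p = 0.309). Fau, whose subunit the naming rule misses, had 614, 569 and 590.3 CPM in NT NC and 706, 607 and 703 CPM in T NC, which overlapped (0.18 ± 0.08). The 77 tested mitochondrial ribosomal proteins, a list added after the values were seen, had 64 above 0 in T NC (median 0.11) and 58 in NT NDE (median 0.07), with 0 adjusted edgeR calls and 16 and 10 at an unadjusted p under 0.05, where 7.80% and 10.4% of all genes had such a p.

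Genes outside the members with the most similar pattern were sought among 10271 genes with at least 10 CPM, by Pearson r of log2 CPM with the mean of the usual subunits over 12 libraries. Lsm4, a subunit of RNA-binding Sm-like rings, came first (r = 0.94), followed by Gm10288 (0.93), Ubxn1 (0.92), Rpsa-ps2 (0.91), Emg1, a methyltransferase of small subunit assembly (0.91), Rack1, a protein bound to the small subunit (0.89), Scand1 (0.89), Rps10-ps2 (0.89), Eif3k (0.89) and Hdac1, a histone deacetylase (0.88). Among the most opposite were Dock9 (-0.92), Ptpre (-0.92), Atat1, a tubulin acetyltransferase (-0.88), and Dstyk (-0.86). Coding lengths of the 7 protein-coding genes among the most similar ran from 414 bases in Lsm4 through 891 in Ubxn1 and 951 in Rack1 to 1446 in Hdac1. Those of the 4 opposite genes ran from 930 in Atat1 to 6339 in Dock9, so the ranges overlapped. All 12 points share the libraries' scaling, and the r values carry no test.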

How the data were processed

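Gene counts of 12 mouse lymph node libraries were analysed as the authors deposited them, with no normalisation. Per the submitters' processing notes, HISAT2 2.0 and mm10 were used; not given in the sources used here are the read counter, its annotation, its strand setting and its treatment of reads with several matches. The 346 gene IDs without a symbol held at most 0.05479% of a library's counts. Library totals of 16862953 to 24467873 set the precision.

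All genes with enough counts (filterByExpr, minimum count 10, minimum total 15) were fitted over the 12 libraries in edgeR 4.0.16 (R 4.3.3) with TMM scaling and a robust quasi-likelihood model, 1 mean per group, and 7 contrasts. P-values were adjusted over all 17301 tested genes (Benjamini-Hochberg, threshold 0.05, two-sided), and SEs are the absolute log2 fold change divided by the square root of F. The members and lists were chosen with earlier results of these data known. Genes named were the 5 highest and 5 lowest members of a contrast, members that are not usual subunits, the extremes of level and spread, the most and least similar non-members, and the 2 smallest p-values of a list; genes named for their role were added. TPM and coding length used 1 GENCODE M21 transcript per gene. Paralogue ratios used CPM + 0.5 and exact permutation tests (SciPy 1.17.1, Python 3.11.15). Alternatives were DESeq2 1.42.0, limma-voom (limma 3.58.1), other scalings and filters, a replicate block, and leaving out libraries; the list of mitochondrial ribosomal proteins and the coding length pattern were added after seeing the data. The scripts were tested on simulated data. The labels name no batch. A few genes the rule for naming covers are not reported here.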

Additional observations from a re-analysis of the deposited data

How the results depend on the processing

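No ribosomal protein gene passed the adjusted edgeR test in any of the 7 contrasts, and this count changed under 3 alternatives. In NT NDE against NT NC it was 2 with DESeq2, where 138 of 17301 genes were called. It was 1 there without a filter on low counts, where 43 of 30719 genes were called. For tumour averaged over nerve status it ran from 0 to 1 over the fits that left out 1 library. The 1 call (Rpl39) came without T NDE replicate 3, where 22 of 17645 genes were called. Some differences in paralogue log2 ratio between groups changed without the 3 salivary libraries, which leaves NT NC replicate 1 alone in its group. In NT NDE against NT NC the difference went from 0.104 to 0.0157 for Rpl7l1/Rpl7 and from 0.0121 to -0.0471 for Rplp2/Rplp1. In T NC against NT NC it went from 0.0522 to -0.0071 for Rplp2/Rplp1. The cause of these changes was not tested. Over 10 choices of scaling, filter and tool the median log2 fold change ran from 0.16 to 0.18 in T NC against NT NC, from -0.00 to 0.02 in T NDE against NT NDE, from -0.09 to -0.07 in T NDE against T NC, from 0.07 to 0.09 in NT NDE against NT NC and from -0.16 to -0.13 in the interaction. With the replicate number as a block, 0 members were called and these medians were 0.16, 0.01, -0.07, 0.08 and -0.14; the block changed no call. Over all groups, same-numbered libraries did not deviate together (r of -0.21 to 0.43, median 0.04, over 18 pairs, against -0.45 to 0.33, median -0.03, over 36 pairs with different numbers), so the numbers were not taken to pair the libraries of the 4 groups. NT NC and T NC taken alone had r of 0.25, 0.12 and 0.10 in their same-numbered pairs, the only 2 groups with every pair above 0.1, although NT NC replicate 2 correlated more with T NC replicate 3 (0.17). With the block that comparison had 41 members at an unadjusted p under 0.05, against 42 without it. The SE of a single gene had a median of 0.07 over the members in T NC against NT NC, beside a median log2 fold change of 0.16.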
